A study of Rattus norvegicus with 6 samples.

Results

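Protein kinase A (PKA) was described through 8 of the 37991 genes listed, namely Prkaca and Prkacb for the catalytic subunits, Prkar1a, Prkar1b, Prkar2a and Prkar2b for the regulatory subunits, the kinase inhibitor Pkia and the scaffold Akap12. They were taken by gene symbol, in a set chosen with earlier results of these data known, and all 8 are given whatever their values. RNA-seq was performed on Achilles tendon of male Sprague-Dawley rats, an outbred laboratory strain, that were 8 weeks old at tenotomy, the surgical cutting of the tendon. The PM group (n = 3 samples) was exposed to inhaled fine particulate matter (PM2.5) over 6 weeks, with 3 exposures per week, whereas the non-PM group (n = 3 samples) was not exposed. All rats of both groups had the tenotomy, and no sample of an uncut tendon was analysed here. RNA came from undivided healed tissue, so each sample mixes the cell types present there. The samples carry a number and no animal identity, so each p-value reflects only how far these samples spread. The comparison asks which transcripts of the kinase differ in the healing tendon after PM exposure.

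PKA is the main intracellular target of cyclic AMP (cAMP), the messenger made by adenylyl cyclases and broken down by phosphodiesterases. At rest the regulatory subunits hold the catalytic subunits inactive, and binding of cAMP frees the catalytic subunits to phosphorylate enzymes, ion channels and the transcription factor CREB. Regulatory subunits fall into the types RI and RII, which differ in where anchoring proteins (A-kinase anchors) place them in the cell. Catalytic subunits that enter the nucleus are bound by PKI peptides such as Pkia, which block the kinase and carry it out of the nucleus.

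CREB binds the cAMP response element (CRE), and its binding site is often searched for in promoters. RefSeq windows of the GRCr8 build, from 250 bases before to 50 bases after the start, were found for 6 of the 8 genes, and Prkar2a and Pkia had no entry. The 3 windows printed are those of the catalytic genes, the only windows of the set that held the core CRE, and that of Prkar2b, the gene with the largest difference between groups. The Prkaca window lies at chr19:41083140-41083439, the Prkacb window at chr2:238386266-238386565 and the Prkar2b window at chr6:54381362-54381661, each on the minus strand. Capitals mark the core CRE, the letters TGACG, searched on both strands, which reads CGTCA where it lies on the other strand.
Prkaca: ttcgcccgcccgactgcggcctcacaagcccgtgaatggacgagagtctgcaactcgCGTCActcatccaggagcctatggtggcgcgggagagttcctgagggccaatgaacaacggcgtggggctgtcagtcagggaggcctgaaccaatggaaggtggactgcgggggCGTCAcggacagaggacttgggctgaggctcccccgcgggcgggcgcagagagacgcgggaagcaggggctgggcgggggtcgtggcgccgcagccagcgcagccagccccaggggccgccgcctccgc
Prkacb: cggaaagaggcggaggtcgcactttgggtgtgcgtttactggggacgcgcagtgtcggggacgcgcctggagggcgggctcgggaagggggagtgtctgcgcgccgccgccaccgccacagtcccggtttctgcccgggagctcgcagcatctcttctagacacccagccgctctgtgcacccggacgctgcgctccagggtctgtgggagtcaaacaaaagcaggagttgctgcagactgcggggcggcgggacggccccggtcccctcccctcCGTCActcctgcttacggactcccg
Prkar2b: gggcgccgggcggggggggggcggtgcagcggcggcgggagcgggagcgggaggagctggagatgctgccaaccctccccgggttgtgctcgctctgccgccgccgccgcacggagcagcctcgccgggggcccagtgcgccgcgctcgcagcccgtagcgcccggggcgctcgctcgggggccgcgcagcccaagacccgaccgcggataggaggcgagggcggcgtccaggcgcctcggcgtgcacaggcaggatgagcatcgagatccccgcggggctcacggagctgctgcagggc
Prkaca held 2 core CREs, beginning 193 and 79 bases before the start, and Prkacb held 1, beginning 25 bases after it. The windows of Prkar1a, Prkar1b (2 start records), Prkar2b and Akap12 held 0. The full CRE, TGACGTCA, which contains the core CRE on both strands, was in none of the windows of these genes. Of 33469 RefSeq promoter windows of the same length, 21.2% held the core CRE and 1.83% the full CRE. A match is a description of letters and shows no binding.

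The libraries held 46357986 to 62298837 counts. All 10 tendon cell markers were detected in every library, with a summed level of 36302 to 73208 CPM (counts relative to the library total, scaled by TMM factors) in the PM group and 7599 to 66399 CPM in the non-PM group, the lowest in non-PM replicate 3. Skeletal muscle genes (16 genes) were present in every library, at 28183 to 79677 CPM in the PM group and 19033 to 131262 CPM in the non-PM group. Non-PM replicate 3 thus had the highest summed muscle and the lowest summed tendon level, although of the 16 muscle genes 9 were highest in PM replicate 2 and 7 in non-PM replicate 3. Keratinocyte (skin cell) markers, summed over 7 genes, reached 519 CPM in non-PM replicate 2 and 5.24 to 8.45 CPM in the other libraries. Values without non-PM replicate 3 are given where it decides a result. With edgeR's quasi-likelihood test and Benjamini-Hochberg adjustment, 0 of 18134 genes tested passed an adjusted p of 0.05, while 537 had an unadjusted p under 0.05 and DESeq2 called 13 genes. The calls below therefore use the relaxed criterion of the study, requiring a fold change of 1.2 or more and an unadjusted p under 0.05. By it 266 genes were higher and 271 lower in the PM group, and on log2(FPKM + 0.1) values 192 were higher and 127 lower.

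Of the 8 PKA genes, all were tested, 1 was higher in the PM group by the relaxed criterion, 0 were lower and 7 did not pass. Over all genes tested, 2.96% passed in either direction, 1.47% were higher and 1.49% were lower. The gene that passed was Prkar2b, which encodes the regulatory subunit RIIβ, best known from fat and brain. Fold changes lay above 0 for 5 genes and below 0 for 3, and their median on the log2 scale was 0.10, against -0.00405 over all genes tested. The CPM of the groups did not overlap for 1 of the 8 genes, beside 9.68% of all genes tested (4.77% higher in the PM group and 4.91% lower).

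**Figure D1:**
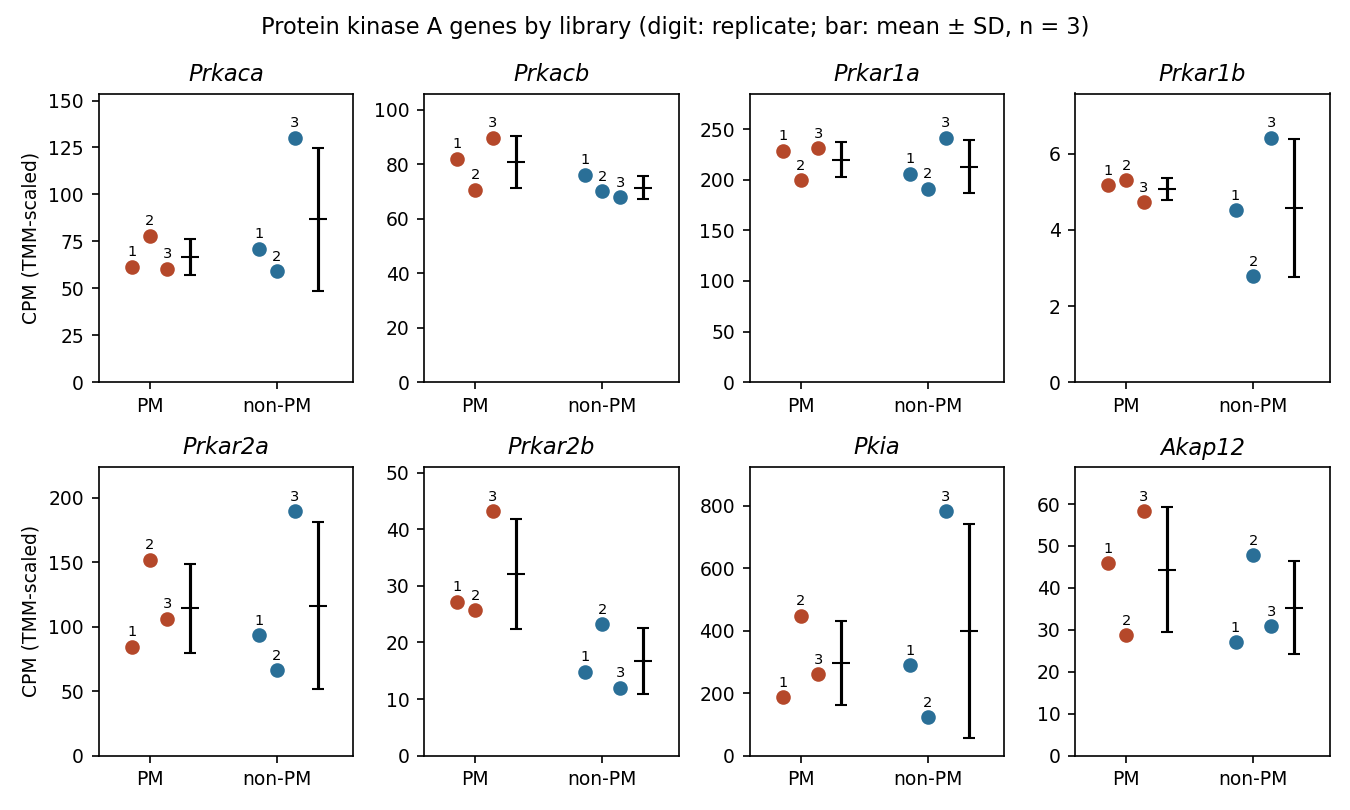
CPM of each PKA gene (vertical axis, from 0) in the PM and non-PM groups, with 1 point per library, its replicate number above it, and bars for the mean ± SD (n = 3). Only the Prkar2b points of the groups do not overlap, and non-PM replicate 3 stands highest for Prkaca, Prkar1a, Prkar1b, Prkar2a and Pkia.

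The plot of CPM by library shows where the spread lies. For Prkaca, Prkar2a and Pkia the non-PM bar is much longer than the PM bar, because of the high point of non-PM replicate 3. For Prkar1a and Prkacb the 6 points lie close together.

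Prkaca (gene 25636) encodes the catalytic subunit Cα, found in most tissues. Its level was 61.5, 77.9 and 60.5 CPM in PM replicates 1 to 3 and 71.2, 59.0 and 130.3 CPM in non-PM replicates 1 to 3. The groups overlapped, and non-PM replicate 3 alone lay far above the other libraries. Compared to the non-PM group, the log2 fold change in the PM group was -0.38 ± 0.32 (SE; adjusted p = 0.942, edgeR with Benjamini-Hochberg). Without non-PM replicate 3 it was 0.02. A score of muscle genes, their mean log2 CPM centred on the 6 libraries, was highest in PM replicate 2 at 1.69 and 0.81 in non-PM replicate 3. With this score in the model, the log2 fold change of Prkaca was -0.58 (unadjusted p = 0.0469, adjusted p = 0.439, edgeR with Benjamini-Hochberg). This passes the relaxed criterion, in a fit where 1921 of 18134 genes did, against 537 without the score.

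Prkacb (gene 293508) encodes the catalytic subunit Cβ, which is closely related to Cα in sequence. Prkacb measured 82.1, 70.6 and 89.8 CPM in PM replicates 1 to 3 and 76.2, 70.1 and 67.9 CPM in non-PM replicates 1 to 3. PM replicates 1 and 3 lay above every non-PM library, and PM replicate 2 lay among them. Its log2 fold change was 0.18 ± 0.16 (adjusted p = 0.942, edgeR with Benjamini-Hochberg). It ranged from 0.10 to 0.27 when 1 library was left out.

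Prkar1a (gene 25725) encodes RIα, the widespread type I regulatory subunit, and was the most even of the 8 genes. Its level was 228.7, 199.6 and 231.1 CPM in PM replicates 1 to 3 and 205.9, 191.3 and 241.8 CPM in non-PM replicates 1 to 3. The non-PM libraries held both the highest and the lowest value. On the log2 scale the fold change was 0.05 ± 0.20 (adjusted p = 0.976, edgeR with Benjamini-Hochberg), and it was -0.02 without non-PM replicate 2. The highest library was 1.26 times the lowest, and only 10.1% of the 11725 genes with an FPKM of at least 1 in each library had a smaller ratio.

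Prkar1b (gene 25521) encodes RIβ, the type I subunit known mainly from the nervous system, and was the least abundant of the set. It measured 5.17, 5.31 and 4.73 CPM in PM replicates 1 to 3 and 4.51, 2.78 and 6.42 CPM in non-PM replicates 1 to 3. The PM libraries lay within the range of the non-PM libraries. The log2 fold change was 0.15 ± 0.33 (adjusted p = 0.950, edgeR with Benjamini-Hochberg), with -0.11 when non-PM replicate 2 was left out and 0.46 when non-PM replicate 3 was.

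Prkar2a (gene 29699) encodes RIIα, the widespread type II subunit. Its level was 84.5, 151.9 and 106.1 CPM in PM replicates 1 to 3 and 93.3, 66.2 and 189.5 CPM in non-PM replicates 1 to 3. High values occurred in both groups, in PM replicate 2 and non-PM replicate 3, and the group means were 114.2 ± 34.4 and 116.3 ± 64.8 CPM. The log2 fold change was -0.03 ± 0.43 (adjusted p = 0.992, edgeR with Benjamini-Hochberg). Its sign was not fixed, at 0.51 without non-PM replicate 3 and 0.17 on log2(FPKM + 0.1) values, a scale that moved the median of all genes by 0.11.

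Prkar2b (gene 24679) measured 27.2, 25.7 and 43.2 CPM in PM replicates 1 to 3 and 14.8, 23.2 and 12.0 CPM in non-PM replicates 1 to 3. Every PM library lay above every non-PM library, with PM replicate 3 highest and the gap between PM replicate 2 and non-PM replicate 2 small. The group means were 32.1 ± 9.71 and 16.7 ± 5.83 CPM, a fold of 1.92. The log2 fold change was 0.94 ± 0.32 (unadjusted p = 0.0225, adjusted p = 0.942, edgeR with Benjamini-Hochberg), so the gene passed the relaxed criterion and not the adjusted test. In the deposited FPKM the groups overlapped, since non-PM replicate 2 had 7.39 FPKM and PM replicate 2 had 7.05 FPKM. The study names Prkar2b in pathways it derived from these samples, so the direction found here is not independent evidence.

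The difference in Prkar2b kept its direction without any 1 library, with log2 fold changes from 0.67 to 1.26. Leaving out PM replicate 3 gave an unadjusted p of 0.0803 in edgeR, leaving out non-PM replicate 1 gave 0.0706 and leaving out non-PM replicate 3 gave 0.0623, so each of these libraries decided the call. Of the 10 adipocyte markers 8 were highest in PM replicate 3, as Prkar2b was, and 5 were lowest in non-PM replicate 3, whereas Lpl and Cidea were highest in non-PM replicate 3. Adipoq, the fat hormone adiponectin, measured 68.6, 105.6 and 258.5 CPM in PM replicates 1 to 3 and 46.0, 87.1 and 27.3 CPM in non-PM replicates 1 to 3. Lpl, lipoprotein lipase, which muscle also expresses, measured 206.2, 509.7 and 355.4 CPM in PM replicates 1 to 3 and 285.8, 194.1 and 797.3 CPM in non-PM replicates 1 to 3. The markers thus did not share 1 order over the libraries. Over the 10 adipocyte markers the summed level was 806 to 1728 CPM in the PM group and 758 to 1274 CPM in the non-PM group. Of these markers 8 had a fold change above 0, 0 passed the relaxed criterion, and none was at 0 in any library. With an adipocyte score as a covariate, chosen after seeing the data, the log2 fold change of Prkar2b was 0.54 (unadjusted p = 0.112, edgeR). With the muscle score instead it was 1.16 (unadjusted p = 0.0179, adjusted p = 0.439, edgeR with Benjamini-Hochberg). It passed the relaxed criterion there, as did 1921 of 18134 genes in that fit. In whole tissue, fewer cells of a type and less RNA per cell cannot be told apart.

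**Figure D2:**
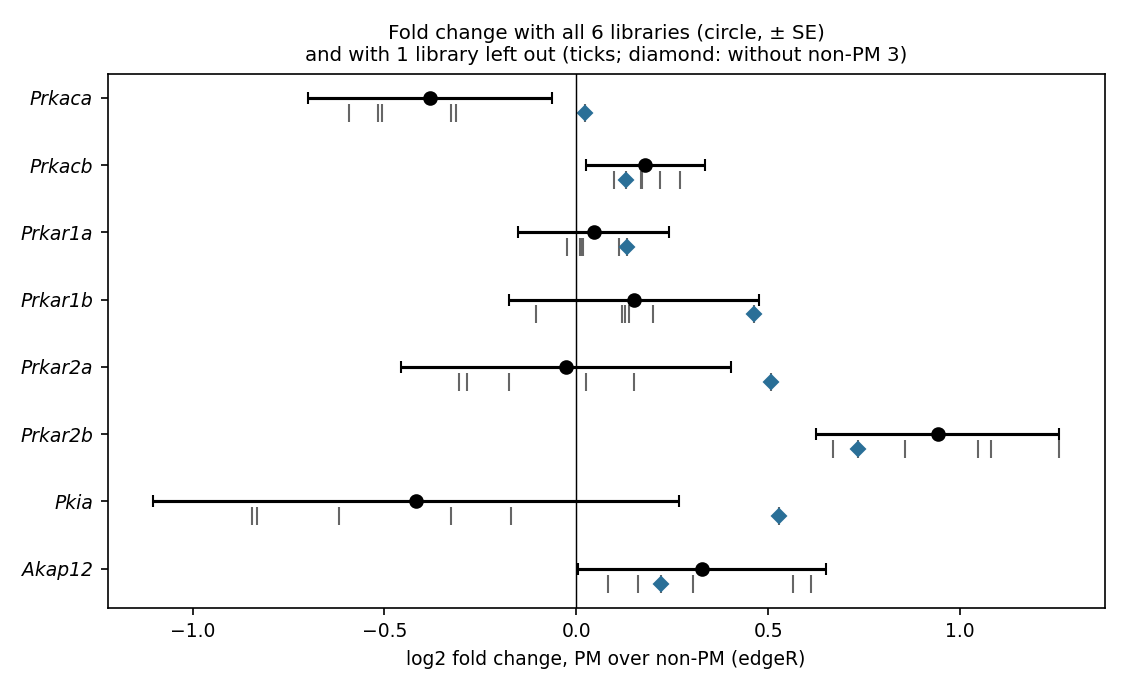
Log2 fold change of each PKA gene, PM over non-PM (horizontal axis), with all 6 libraries (circle, bar ± SE) and with 1 library left out (ticks, diamond for the fit without non-PM replicate 3). Prkar2b stays between 0.67 and 1.26, while Prkaca, Prkar2a and Pkia move from below 0 to above 0 at the diamond.

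The plot of fold changes sets the genes against each other. Prkacb, Prkar2b and Akap12 lay above 0 in each fit with 1 library left out. The other 5 genes had at least 1 such fit on either side of 0.

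Pkia (gene 114906) encodes PKIα, the PKA inhibitor peptide best known from skeletal muscle, and it varied most among the 8 genes. Its level was 186.9, 447.4 and 260.0 CPM in PM replicates 1 to 3 and 289.3, 122.8 and 783.0 CPM in non-PM replicates 1 to 3. The non-PM libraries held both the highest and the lowest value, 6.38 times apart, a ratio larger than that of 97.3% of the 11725 genes compared. For Pkia the log2 fold change was -0.42 ± 0.69 (adjusted p = 0.943, edgeR with Benjamini-Hochberg), and without non-PM replicate 3 it was 0.53.

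Akap12 (gene 83425), also called gravin, encodes a scaffold that ties PKA to the cell membrane and cytoskeleton. It measured 45.9, 28.7 and 58.3 CPM in PM replicates 1 to 3 and 27.1, 47.8 and 30.9 CPM in non-PM replicates 1 to 3. The groups overlapped, since non-PM replicate 2 was second highest of the 6 libraries and PM replicate 2 second lowest. Akap12 had a log2 fold change of 0.33 ± 0.32 (adjusted p = 0.942, edgeR with Benjamini-Hochberg), with a range of 0.08 to 0.61 when 1 library was left out.

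Pkia, Prkar2a and Prkaca were ordered over the libraries nearly as the summed level of muscle transcripts, a sum in which Acta1, Myh7 and Ttn weigh most. From the highest to the lowest library, the summed CPM of the 16 skeletal muscle genes ran non-PM replicate 3, PM replicate 2, non-PM replicate 1, PM replicate 3, PM replicate 1 and non-PM replicate 2. Pkia had the identical order over the 6 libraries. Prkar2a differed from it only in that PM replicate 3 lay above non-PM replicate 1, and Prkaca only in that PM replicate 1 lay above PM replicate 3. In the deposited FPKM Pkia and Prkar2a had the same orders as in CPM. Prkaca was lowest in PM replicate 3 by FPKM, at 25.4 FPKM. Prkacb, Prkar2b and Akap12 were not highest in non-PM replicate 3, and Prkacb and Prkar2b were lowest there. The 9 muscle genes that were highest in PM replicate 2, such as Ckm and Myh4, do not have this order. It is a description over 6 libraries, and the part of muscle content in these levels was not tested beyond the covariate fit.

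**Figure D3:**
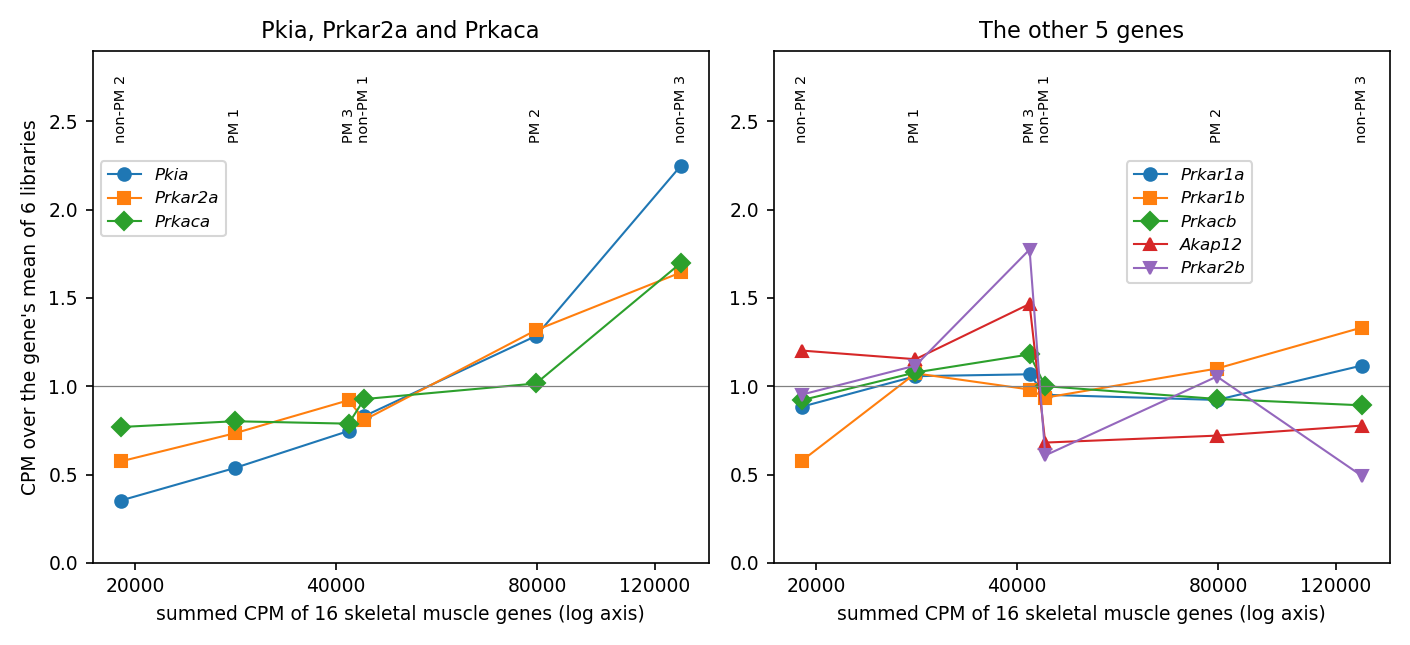
CPM of each gene divided by its mean of the 6 libraries (vertical axis) against the summed CPM of 16 skeletal muscle genes (horizontal log axis), 1 point per library, with lines joining the points of a gene. This sum is highest in non-PM replicate 3 (131262 CPM) and lowest in non-PM replicate 2 (19033 CPM). The same holds for the TMM-scaled CPM of Pkia, Prkar2a, Prkaca, Prkar1a and Prkar1b, while Prkacb and Prkar2b are lowest in non-PM replicate 3.

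The plot against muscle genes separates the isoforms of 1 subunit type. Prkaca lay highest in the library where Prkacb was lowest, and the same held for Prkar2a and Prkar2b. Prkar1a and Prkar1b were both highest in non-PM replicate 3 and lowest in non-PM replicate 2 by CPM, and Prkar1a moved little. Their order depends on the library scaling, with TMM factors of 0.791 in non-PM replicate 3 and 1.158 in non-PM replicate 2. In the deposited FPKM Prkar1a was lowest in non-PM replicate 3, at 51.9 FPKM. Prkar1b was then highest in PM replicate 1, at 2.13 FPKM.

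FPKM, which is scaled by transcript length, allows levels to be compared between genes. Over the 6 libraries Pkia averaged 74.6 ± 40.4 FPKM (SD, n = 6) and Prkar1a 58.1 ± 6.01 FPKM, and this pair does not differ beyond its spread, Pkia being higher in 3 of 6 libraries. Prkaca followed at 30.0 ± 6.06 FPKM and Prkar2a at 22.7 ± 6.51 FPKM, with Prkaca higher in 5 of 6 libraries. Prkacb averaged 14.3 ± 2.98 FPKM and lay below Prkar2a in 6 of 6 libraries. Prkar2b, Akap12 and Prkar1b were less abundant. Prkar2b averaged 7.04 ± 3.49 FPKM and Akap12 6.02 ± 2.35 FPKM, a pair that overlapped, with Prkar2b higher in 4 of 6 libraries. Prkar1b, at 1.78 ± 0.379 FPKM, was below every other gene of the set in every library. The kinase transcripts of this tendon tissue were thus mainly Prkar1a, Prkaca and Prkar2a by FPKM.

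The balance of regulatory to catalytic transcripts was higher in every PM library than in every non-PM library. The ratio of the summed FPKM of the 4 regulatory genes to that of the 2 catalytic genes was 2.24, 2.12 and 2.33 in PM replicates 1 to 3 and 1.86, 1.97 and 1.70 in non-PM replicates 1 to 3. The means were 2.23 ± 0.106 and 1.84 ± 0.136, and the difference of 0.387 ranged from 0.316 to 0.451 when 1 library was left out. As a score over the chosen genes this ratio was not tested, and the CPM of the groups also did not overlap for 9.68% of all genes tested. The other ratios taken, the isoform shares, the RII share and Pkia to catalytic, overlapped between groups. The summed regulatory level was 94.5, 92.2 and 102.3 FPKM in the PM group and 80.1, 81.9 and 87.2 FPKM in the non-PM group, without overlap. That of the catalytic genes was 42.3, 43.5 and 43.8 FPKM in the PM group and 43.2, 41.6 and 51.3 FPKM in the non-PM group, with overlap. The ratio is taken within a library and does not depend on library scaling, but the sums do. Divided by the TMM factors, the regulatory sum was 110.2 in non-PM replicate 3 and at most 97.2 in the PM group, so that the groups overlapped.

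**Figure D4:**
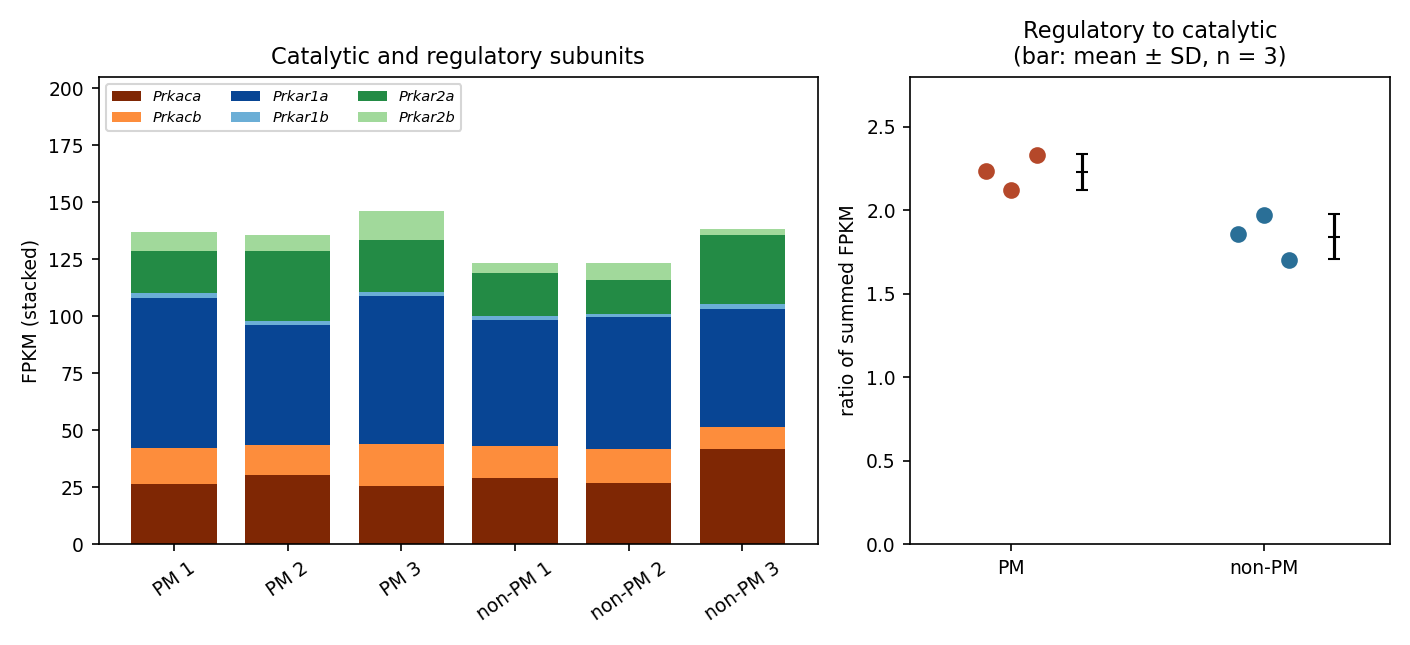
Stacked FPKM of the 2 catalytic and 4 regulatory subunit genes in each library (left, from 0), and the ratio of summed regulatory to summed catalytic FPKM by group (right, 1 point per library, bar for mean ± SD, n = 3). The PM ratios lie between 2.12 and 2.33 and the non-PM ratios between 1.70 and 1.97.

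The stacked plot shows that Prkar1a formed the largest block in every library, and that the blocks of Prkar1b are thin. Within each subunit class the isoform shares overlapped between groups. Prkar2b made up 30.9%, 18.8% and 35.9% of the RII transcripts (FPKM) in PM replicates 1 to 3 and 18.0%, 32.6% and 8.07% in non-PM replicates 1 to 3. Prkacb made up 37.3%, 29.9% and 42.2% of the catalytic transcripts in PM replicates 1 to 3 and 33.1%, 35.3% and 18.6% in non-PM replicates 1 to 3. The lowest share of both was in non-PM replicate 3, the library with the highest summed muscle level. RII genes made up 34.5% ± 6.32 of the regulatory FPKM in the PM group and 31.6% ± 5.77 in the non-PM group. The FPKM of Prkacb and Prkar1b also carry an uncertain length, since counts per FPKM, which follow the length used, differed between libraries by 1.10 and 1.12 times, against a median of 1.02 over the 11725 genes.

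The genes whose pattern over the 6 libraries was most like that of each PKA gene were sought among 11728 expressed genes, by the root mean square difference of log2 CPM centred on each gene's mean. Nearest to Pkia were Srl (0.059), which encodes sarcalumenin, a calcium-binding protein of the muscle sarcoplasmic reticulum, Acyp2 (0.060) and Sh3bgr (0.067), where the median over all candidates was 0.8996. Nearest to Prkar2a were Idh3a (0.071), a subunit of mitochondrial isocitrate dehydrogenase, Egln1 (0.073), an oxygen sensor, and Wwp1 (0.077), a ubiquitin ligase. Nearest to Prkaca were Trappc9 (0.036), Tfam (0.039), which maintains mitochondrial DNA, and Ube2g2 (0.044). Prkar2b had no partner so close. Its nearest genes were Scara5 (0.174), a scavenger receptor, Spopl (0.177) and Jrkl (0.190), with a median over candidates of 0.622. Nearest to Akap12 were Axl (0.087), a receptor tyrosine kinase, Fam129a (0.123) and Smpdl3a (0.126). Prkacb was nearest to Dennd4a (0.024), Ankib1 (0.031) and Pigw (0.033), Prkar1a to Cenpc (0.026), Snx25 (0.027) and Nfkb1 (0.028), and Prkar1b to Dusp3 (0.037), Fgf7 (0.058) and Itih3 (0.092).

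The other genes that act directly on PKA did not pass the relaxed criterion. Of 3 further kinase and inhibitor genes, Pkig, a second PKI peptide, had a log2 fold change of -0.33 ± 0.25 and Prkx, a kinase related to the catalytic subunits, -0.08 ± 0.17. Pkib, the third PKI gene, was near the limit of detection at 1.003 ± 0.327 CPM in the PM group and 0.689 ± 0.624 CPM in the non-PM group. Of 27 further A-kinase anchors 24 were tested, and Akap3, Akap4 and Akap14 were too low. Of the 24, 12 had fold changes above 0 and 12 below, the median being 0.02 on the log2 scale, and 0 passed the relaxed criterion in either direction. The smallest p among them belonged to Nbea (neurobeachin), at 0.34 ± 0.18, then Akap11, at 0.30 ± 0.18, Akap2, at 0.37 ± 0.24, and Akap17b, at 0.56 ± 0.37. Akap11, which binds RII and glycogen synthase kinase, was the single anchor whose groups did not overlap. It measured 50.3, 48.8 and 59.7 CPM in PM replicates 1 to 3 and 47.7, 46.5 and 34.7 CPM in non-PM replicates 1 to 3. Of the 24 anchors 1 was thus without overlap, beside 9.68% of all genes tested.

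Genes listed under cAMP synthesis and breakdown lay above 0 more often than below, where 49.5% of all genes tested lay above 0. By the relaxed criterion 1.47% of all genes tested were higher and 1.49% lower. The synthesis list also holds Gnai1, Gnai2, Gnai3 and Gnaz, G protein subunits that inhibit adenylyl cyclases. Its counts therefore give no direction of cAMP synthesis. Of its 16 genes 11 lay above 0 and 5 below, and the median log2 fold change was 0.30. In this list 2 were higher by the relaxed criterion, 0 lower and 14 did not pass. The 2 were the adenylyl cyclases Adcy5 and Adcy4, of which Adcy4 measured 58.1 ± 11.7 CPM in the PM group and 42.5 ± 4.13 CPM in the non-PM group (log2 fold change 0.45 ± 0.19). Adcy6 and Adcy7 did not pass, at 0.41 ± 0.18 and 0.38 ± 0.21. Of 16 phosphodiesterase genes 12 lay above 0 and 4 below, the median was 0.31, and 4 were higher, 0 lower and 12 did not pass. Besides Pde3a, they were the cAMP-specific enzymes Pde4a (0.86 ± 0.31) and Pde4b (0.57 ± 0.24) and the calmodulin-dependent Pde1b (0.72 ± 0.27). Adjusted p was 0.942 for each of these genes (edgeR with Benjamini-Hochberg).

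Beyond the kinase, other proteins that bind cAMP and the substrates of PKA were counted. Of 13 other cAMP receptors 8 were tested, 2 lay above 0 and 6 below, the median being -0.24, and 0 passed in either direction, while without non-PM replicate 3 the median was 0.28. The exchange factor Rapgef3 had 0.19 ± 0.19, the pacemaker channel Hcn4 0.34 ± 0.50, and Popdc3 and Popdc2, membrane proteins of striated muscle, -0.49 ± 0.50 and -0.30 ± 0.51. Of 28 PKA substrates and CREB partners 17 lay above 0 and 11 below, and the median was 0.07. By the relaxed criterion 3 were higher, 0 lower and 25 did not pass, beside 1.47% higher and 1.49% lower over all genes tested. The 3 were Creb1, Lipe, the hormone-sensitive lipase of fat, and Ryr2, a calcium release channel, which was barely expressed at 0.077 FPKM. Lipe measured 90.05, 94.5 and 113.0 CPM in PM replicates 1 to 3 and 50.6, 78.5 and 74.7 CPM in non-PM replicates 1 to 3, without overlap, and its log2 fold change was 0.55 ± 0.22 (adjusted p = 0.942, edgeR with Benjamini-Hochberg). Lipe no longer passed without PM replicates 1, 2 or 3 or non-PM replicate 1 (lowest 0.36), nor with the adipocyte score (0.35). Plin1, the lipid droplet protein that PKA phosphorylates in fat, had 1.17 ± 0.61 and did not pass. Its value was 0.46 without PM replicate 3, 0.010 with the adipocyte score, a list that includes Plin1, and 1.54 without PM replicate 1, where it passed.

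Over the 6 lists together 9 of 95 genes tested were higher and 0 lower by the relaxed criterion, beside 1.47% higher and 1.49% lower over all genes tested. With the adipocyte score 3 were higher (Adcy4, Pde3a and Pde4b) and 0 lower, beside 117 and 140 of all 18134 genes tested. On log2(FPKM + 0.1) values the counts were 4 and 0, beside 192 and 127. With the muscle score they were 9 and 5, beside 1108 and 813. The study itself names Adcy5, Adcy6, Creb1, Lipe, Pde1b, Pde3a, Pde4a and Ryr2 in pathways it derived from these samples, so these counts are not independent evidence of a direction. Of the 9 genes 2, Adcy5 and Pde3a, passed in every fit with 1 library left out, and 7 did not. Without 1 library the number higher was 4, 5 and 4 without PM replicates 1 to 3 and 2, 9 and 7 without non-PM replicates 1 to 3. Those lower were then 1, 0 and 0, and 0, 5 and 1. Over all genes tested in these fits, 230, 337 and 110, and 260, 582 and 277 were higher. Those lower over all genes were 203, 177 and 96, and 345, 627 and 549, of 18569 to 18699 genes. Endothelial markers, summed over 10 genes, did not overlap between groups. They reached 1699, 1100 and 1131 CPM in PM replicates 1 to 3 and 995, 1082 and 1049 CPM in non-PM replicates 1 to 3. Of these markers 10 of 10 had a fold change above 0, 2 passed the relaxed criterion and none was at 0. All 10 were highest in PM replicate 1, and 1 was lowest in PM replicate 3. The sums of PM replicates 2 and 3 also lay above that of every non-PM library. How far the shared direction rests on PM replicate 1 was not tested. The part of endothelial markers in the counts of the lists was not tested.

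**Figure D5:**
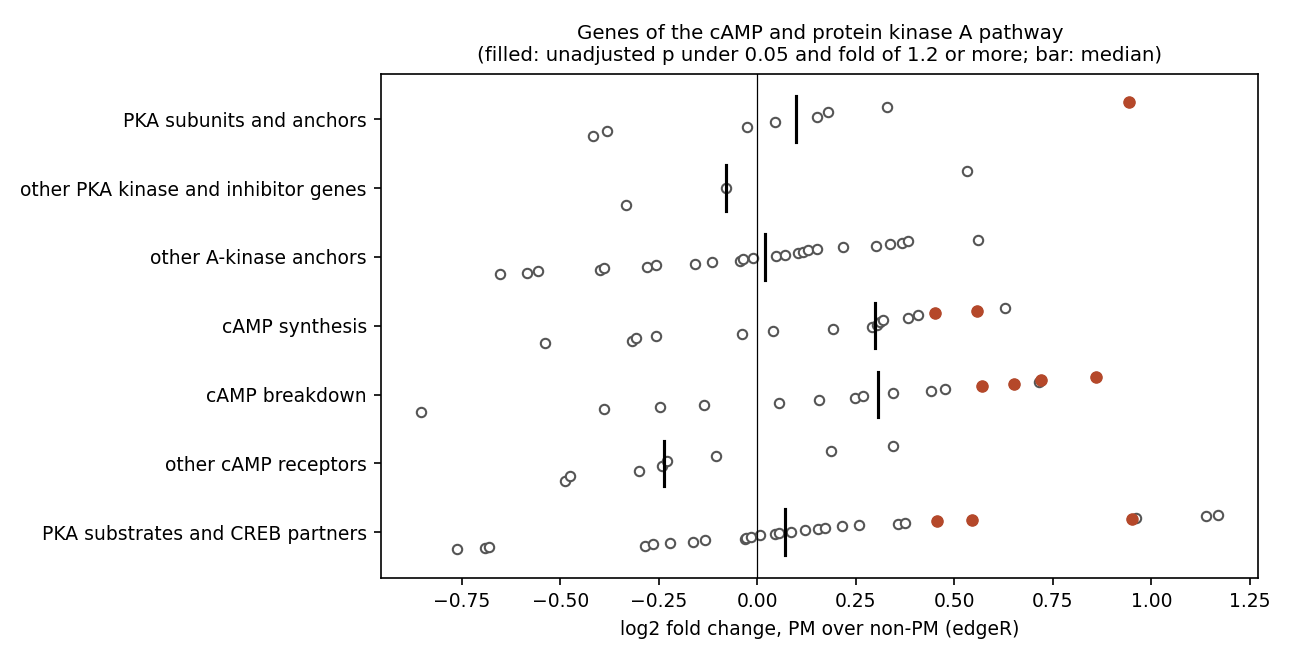
Log2 fold change, PM over non-PM (horizontal axis), of the 8 PKA genes and of the genes tested in 6 lists of the cAMP pathway, 1 point per gene, filled where the unadjusted p was under 0.05 and the fold at least 1.2, with a bar at each list's median. The medians of cAMP synthesis (0.30) and breakdown (0.31) lie to the right of the others, and 0 genes to the left of 0 are filled.

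The plot of the pathway lists places the PKA genes between these groups. Their median of 0.10 was close to that of the substrates, at 0.07, and all filled points lie to the right of 0.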

How the data were processed

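RNA-seq libraries of 3 PM and 3 non-PM tendons were prepared with a stranded mRNA kit for paired-end sequencing. Per the submitters' processing notes, reads were checked with FastQC 0.11.7, trimmed with Trimmomatic 0.38 and aligned by HISAT2 2.1.0 to Rnor_6.0, and the study names StringTie for assembly. The deposited table gives whole-number counts per gene and sample. The same deposited table gives FPKM, computed by the authors per transcript length and library depth. The derivation of the counts, with the treatment of strand and multiply mapped reads, was not given in the sources used here, so reads shared by closely related genes may have been divided. Columns were matched to samples by title, and 0 columns of sample values were left unused. DNA methylation was not analysed here.

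The counts entered edgeR 4.0.16 under R 4.3.3 (filterByExpr, TMM, two-sided quasi-likelihood test, group as the single term) and Benjamini-Hochberg adjustment over 18134 genes of 37991, of which 12229 had no count. SE was approximated by dividing the size of the log2 fold change by the root of the F statistic. CPM and FPKM are given as mean ± SD (n = 3). Alternatives were size factors, DESeq2 1.42.0, no filter, limma 3.58.1 on log2(FPKM + 1) and log2(FPKM + 0.1), a replicate block, a muscle score covariate, each library left out and, chosen after seeing the data, an adipocyte score covariate. The scores are mean log2 CPM of the marker list. The test was checked on simulated counts with a common dispersion and with larger fold changes than those reported here. That check does not show how the test performs on these libraries. No library pair was as alike as counting error alone would make it (lowest chi-square per degree of freedom 189.6).

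All 8 genes were named, with up to 4 genes of the smallest unadjusted p per list and the 3 genes most alike in pattern. The members and lists were chosen with earlier results of these data known. Promoters are RefSeq, GRCr8, and expression uses no coordinates. Of 215 list symbols 215 were matched.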

Additional observations from a re-analysis of the deposited data

How the results depend on the processing

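The count of genes past the relaxed criterion was 537. It was 821 with DESeq2, 292 on log2(FPKM + 1), 319 on log2(FPKM + 0.1), 1921 with the muscle score, 257 with the adipocyte score, and 206 to 1209 with 1 library left out. DESeq2 called 13 genes at the adjusted p. Of the PKA genes, 1 passed the relaxed criterion, against 2 with the muscle score (Prkaca and Prkar2b), 0 with the adipocyte score and 0 to 1 with 1 library left out. Prkar2b had a log2 fold change of 0.54 with the adipocyte score, 1.16 with the muscle score and 0.67 to 1.26 with 1 library left out. Prkaca had -0.58 with the muscle score, and -0.59 to 0.022 with 1 library left out. Prkar2a had 0.16 on log2(FPKM + 1), 0.17 on log2(FPKM + 0.1) and 0.048 with the adipocyte score. With 1 library left out the ranges were -0.31 to 0.51 for Prkar2a, -0.024 to 0.13 for Prkar1a, -0.11 to 0.46 for Prkar1b and -0.85 to 0.53 for Pkia. Among the other genes they were -0.22 to 0.020 for Prkx, -0.057 to 1.22 for Pkib, -0.89 to 0.063 for Popdc3, -0.079 to 0.62 for Hcn4 and -0.71 to 0.23 for Popdc2. With the adipocyte score Pkig had 0.013, Hcn4 -0.072 and Popdc2 0.042, and Prkx had 0.0069 on log2(FPKM + 1) and 0.0099 on log2(FPKM + 0.1). The cause of these moves was not tested.

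Replicate numbers were shared by the groups, and same-numbered samples had deviations from their group mean correlated at -0.18, -0.52 and -0.41. For differently numbered samples the correlations ran from -0.11 to 0.47. Deviations within a group of 3 sum to 0, so these values cannot decide whether samples were paired. With a replicate block, 155 genes and 0 PKA genes passed the relaxed criterion, 3 of the 95 pathway genes passed, Prkar2b had 0.95 (unadjusted p = 0.0566, edgeR) and Prkar2a 0.064.

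With 3 samples a group and summed muscle markers from 19033 to 131262 CPM, 0 genes passed the adjusted test in edgeR. At an unadjusted p under 0.05 there were 537 in edgeR, and DESeq2 called 13 at the adjusted p. A log2 fold change as large as 1.17 (Plin1, SE 0.61) missed the relaxed criterion. The smallest detectable difference was not computed, so a gene that did not pass is not shown to be unchanged.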
